A study of Mus musculus with 10 samples.

Results

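Serotonin receptors are the proteins through which the transmitter of the raphe nuclei acts on hippocampal cells, and the genes described here are Htr1a, Htr1b, Htr2a, Htr2c, Htr3a, Htr4, Htr5a, Htr5b, Htr6 and Htr7. Members were taken by gene symbol, 10 of the 19938 genes measured, and each was read by 1 transcript cluster, the group of array probes that a gene's RNA binds. Hippocampal RNA came from 5 male Ts65Dn mice and 5 male control littermates, all 16 weeks old and on an F1 hybrid B6C3B background, with the right and left hippocampus of a mouse pooled and hybridised to 1 Affymetrix Mouse Gene 1.0 ST array. Ts65Dn mice carry a small extra chromosome with a part of mouse chromosome 16 (Mmu16) homologous to Hsa21, the human chromosome of Down syndrome, and a centromeric part of Mmu17 that is not, so the model also has genes in 3 copies that have no counterpart in Down syndrome. None of the 10 genes lies on these segments, so none is in 3 copies. The question was how strongly each subtype was detected in the hippocampus and whether its level differed between the genotypes.

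Apart from the 5-HT3 receptor, a channel opened by the transmitter, serotonin receptors are G protein-coupled. The 5-HT1 and 5-HT5A receptors couple to Gi/o, which lowers cyclic AMP and opens GIRK potassium channels, the 5-HT2 receptors couple to Gq and phospholipase C, and the 5-HT4, 5-HT6 and 5-HT7 receptors couple to Gs and raise cyclic AMP. In the hippocampus pyramidal cells, granule cells and interneurons express different subtypes, and the choroid plexus, which lies against the hippocampus in the ventricle, is known for its high content of the 5-HT2C receptor.

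Values are log2 signals, on which a difference of 1 is a 2-fold change. Array medians lay between 7.38 and 7.41, and no pair of arrays held identical values. As a check of the labels, the mean signal of the 158 measured genes in 3 copies was 7.67 to 7.73 in Ts65Dn mice and 7.46 to 7.49 in controls. Of 13 markers of the hippocampus, 13 were brighter than 95% of the olfactory and vomeronasal receptor genes, and the brightest were Zbtb20 (11.52), Neurod6 (11.09) and Wfs1 (10.71). Wfs1, a marker of CA1 pyramidal cells, differed by -0.35 ± 0.07 (SE, n = 5 per group) without passing the test (limma adjusted p = 0.0925). Of the 13 hippocampus markers, 8 had a higher mean in Ts65Dn mice. Their median difference was 0.037, and 0 were called.

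No serotonin receptor gene differed between Ts65Dn and control hippocampi past the threshold. With limma, 0 of the 10 genes had an adjusted p under 0.05, where 0.316% of all 23410 transcript clusters were called, and each of the 10 adjusted p-values was 1. At an unadjusted p under 0.05 there were 3 of 10, Htr2a and Htr1b lower and Htr6 higher, against a background of 3.16%. A rank method of the kind the study used, without adjustment, called 5 of 10 (Htr1b, Htr2a, Htr3a, Htr5a and Htr6) against a background of 5.36%. In 0 of the 10 genes were the 5 Ts65Dn values separate from the 5 control values, which was the case for 0.884% of transcript clusters. The median difference of the members was -0.058 and that of all tested transcript clusters -0.003. The median size of the difference, whatever its sign, was 0.104 for the members and 0.033 for all. These sizes were not matched for signal or for spread between mice, and 8 of the 10 members were brighter than the median gene. Fold changes ran from 0.853 for Htr2a to 1.13 for Htr3a, and the 95% intervals of the fold changes from 0.718 to 1.49, both limits being those of Htr2c. Without Htr2c the intervals ran from 0.752 to 1.31. In whole hippocampi, fewer cells that express a receptor and less receptor RNA per cell cannot be told apart.

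**Figure D1:**
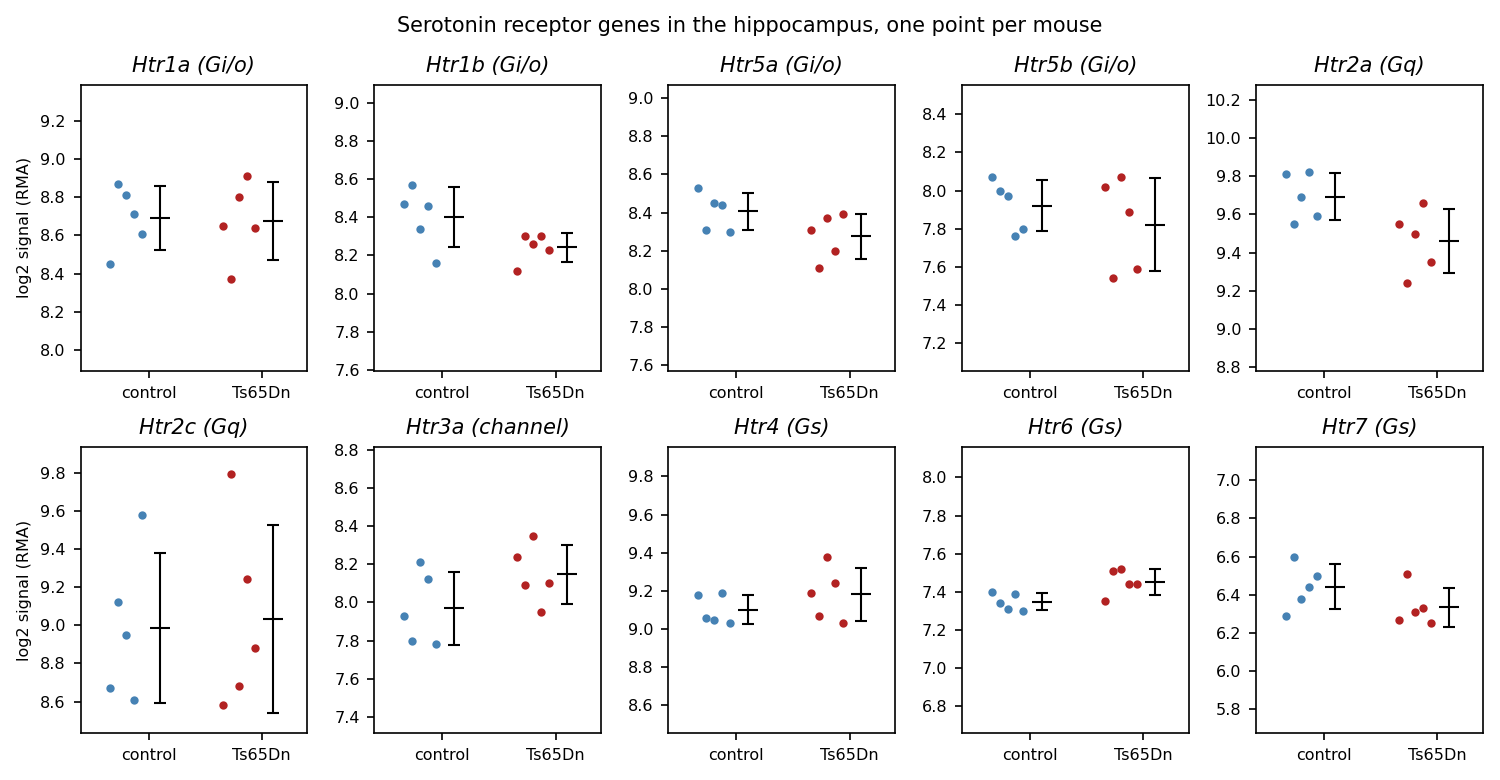
Log2 signal of the 10 serotonin receptor genes in each mouse, with control and Ts65Dn mice side by side, points for mice and bars for the mean and SD (n = 5 per group). Every panel spans the same number of log2 units, and Htr2c is the gene whose values spread most within both groups, from 8.58 to 9.79 in Ts65Dn mice and from 8.61 to 9.58 in controls.

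The signals of the members stood above those of most genes of a class not known for expression in this tissue, least so for Htr7 (above 98.2% of the class). Of the 10 genes, 10 were brighter than 95% of the 1194 olfactory and vomeronasal receptor genes, a limit at a signal of 5.88, and 8 were brighter than the median gene at 7.40. Brightest was Htr2a, with a mean of 9.58 over 10 mice (81.5th percentile of all genes). After it came Htr4 with 9.14 (75.5th), Htr2c with 9.01 (73.6th) and Htr1a with 8.68 (68.9th). In the middle lay Htr5a with 8.34 (63.5th), Htr1b with 8.32 (63.2nd), Htr3a with 8.06 (59.3rd) and Htr5b with 7.87 (56.4th), and the lowest signals were those of Htr6 with 7.40 (49.9th) and Htr7 with 6.39 (35.9th). These signals depend on the probes of each gene as well as on its RNA, so the order was not tested and is not an order of transcript numbers. Between neighbours in it, Htr6 lay under Htr5b and Htr7 under Htr6 with no overlap of their values over 10 mice, and the other neighbours overlapped. Htr4 was above Htr2c in 6 of 10 mice, and Htr5a above Htr1b in 6 of 10.

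Among the other serotonin receptor genes, Htr1f (7.61) had a signal between those of Htr5b and Htr6. It lies on Mmu16 outside the segment present in 3 copies. Htr3b (5.90), which encodes the partner subunit of Htr3a, lay between the limit of 5.88 and that of 5.91 set by olfactory receptor genes alone, while Htr1d (5.60) and Htr2b (5.03) were under it. Differences between genotypes in these 4 genes ran from -0.02 to -0.01, and none was called (limma adjusted p = 1 for each).

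**Figure D2:**
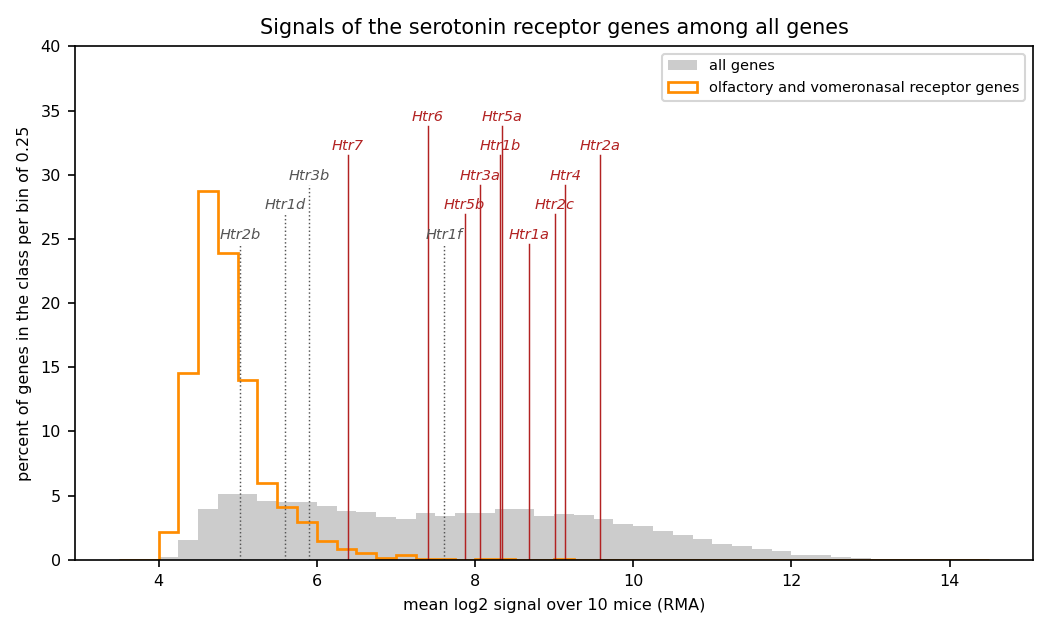
Mean log2 signal over 10 mice (horizontal axis) of 10 serotonin receptor genes (red lines) and 4 further ones (dotted grey lines), over the percent of all genes (grey bars) and of olfactory and vomeronasal receptor genes (orange outline) in each bin. The red lines run from Htr7 at 6.39 to Htr2a at 9.58, to the right of the bulk of the olfactory and vomeronasal class, whose median was 4.80.

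Of the Gi/o-coupled receptors, Htr1a encodes the 5-HT1A receptor, the autoreceptor of raphe neurons and an inhibitory receptor on hippocampal pyramidal cells (chromosome 13, 105443693 to 105448133, GRCm38). Its signal was 8.65, 8.37, 8.80, 8.91 and 8.64 in Ts65Dn replicates 1 to 5 and 8.45, 8.87, 8.81, 8.71 and 8.61 in control replicates 1 to 5. Both groups covered nearly the same range, and Ts65Dn replicate 2 had the lowest value. The difference was -0.02 ± 0.10 (SE, n = 5 per group), a fold change of 0.988 with an interval from 0.845 to 1.15, and its sign turned when Ts65Dn replicate 2 (0.06), control replicate 2 (0.03) or control replicate 3 (0.01) was left out.

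Htr1b encodes the 5-HT1B receptor, which sits on axon terminals and limits transmitter release (chromosome 9, 81628291 to 81633832). Ts65Dn mice had 8.12, 8.30, 8.26, 8.30 and 8.23, and controls 8.47, 8.57, 8.34, 8.46 and 8.16. Of the controls, 4 lay above every Ts65Dn mouse and control replicate 5 within their range. Ts65Dn hippocampi were at -0.16 ± 0.07 relative to controls (fold change 0.897, interval 0.805 to 0.999), past an unadjusted p of 0.05 but not past adjustment (limma adjusted p = 1).

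Htr5a and Htr5b encode the 5-HT5 receptors, of which Htr5b is not functional in humans. Htr5a (chromosome 5, 27841716 to 27855086) measured 8.31, 8.11, 8.37, 8.20 and 8.39 in Ts65Dn mice and 8.53, 8.31, 8.45, 8.44 and 8.30 in controls. All 5 Ts65Dn mice were below the control mean of 8.40, with overlap of the groups, and the difference was -0.13 ± 0.07 (fold change 0.915, interval 0.829 to 1.01). For Htr5b (chromosome 1, 121509758 to 121529312) the Ts65Dn values were 8.02, 7.54, 8.07, 7.89 and 7.59 and the control values 8.07, 8.00, 7.97, 7.76 and 7.80. Here Ts65Dn mice spread more (SD 0.243) than controls (SD 0.136) and reached lower, with a difference of -0.10 ± 0.11 (fold change 0.934, interval 0.792 to 1.10).

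Turning to the Gq-coupled receptors, Htr2a encodes the 5-HT2A receptor, the excitatory subtype through which classical hallucinogens act. The gene lies on chromosome 14 (74640874 to 74706859, plus strand), and the 250 bases before its start (chr14:74640624-74640873, RefSeq, GRCm38.p6) are shown because it had the largest difference in either direction among the 10 genes.
Htr2a promoter: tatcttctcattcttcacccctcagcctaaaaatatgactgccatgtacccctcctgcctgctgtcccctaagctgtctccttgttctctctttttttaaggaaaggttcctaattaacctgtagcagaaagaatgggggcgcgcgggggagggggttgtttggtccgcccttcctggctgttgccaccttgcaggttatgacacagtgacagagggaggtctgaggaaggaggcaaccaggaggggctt
Its signal was 9.55, 9.24, 9.50, 9.66 and 9.35 in Ts65Dn mice and 9.81, 9.55, 9.69, 9.82 and 9.59 in controls. Below the lowest control were 3 Ts65Dn mice, above the highest Ts65Dn mouse were 3 controls, and Ts65Dn replicates 1 and 4 lay among the controls or at their lower end. The difference was -0.23 ± 0.08 (fold change 0.853, interval 0.752 to 0.968, limma adjusted p = 1). It ran from -0.28 without Ts65Dn replicate 4 to -0.18 without Ts65Dn replicate 2, and no left-out array turned its sign.

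Htr2c encodes the 5-HT2C receptor, whose messenger RNA is edited from A to I in its coding sequence and whose gene is X-linked (chromosome X, 146962464 to 147197277, plus strand). It measured 8.58, 9.79, 8.68, 9.24 and 8.88 in Ts65Dn mice and 8.67, 9.12, 8.95, 8.61 and 9.58 in controls. High values occurred in both groups, in Ts65Dn replicate 2 and control replicate 5 above all. The SD was 0.495 in Ts65Dn mice and 0.393 in controls, and the SD within genotypes (0.447) exceeded that of 99.6% of genes, while it was 0.059 to 0.197 in the other 9 receptor genes. The difference was 0.05 ± 0.24 (fold change 1.03, interval 0.718 to 1.49), and without Ts65Dn replicate 2 it was -0.14.

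The spread of Htr2c followed markers of the choroid plexus, the epithelium that makes cerebrospinal fluid. The mean signal of 15 such markers that are not in 3 copies, Htr2c not being one of them, was 6.84, 9.03, 6.73, 8.49 and 7.56 in Ts65Dn mice and 7.26, 7.93, 6.85, 6.71 and 8.87 in controls. Groups overlapped in it over nearly the whole range, 15 of 15 markers had a higher mean in Ts65Dn mice with a median difference of 0.21, and 0 of them were called by limma or had an unadjusted p under 0.05. The brightest markers were Ttr (transthyretin, 11.61), Igf2 (9.80) and Kl (8.90). The mice with the most Htr2c, Ts65Dn replicates 2 and 4 and control replicates 5 and 2, were also the ones with the highest marker means. With genotype in the fit, Htr2c rose by 0.44 ± 0.05 (SE) for each log2 unit of the marker mean, a 1.36-fold step (limma adjusted p = 0.00314 over all transcript clusters, 10 arrays). This threshold was passed by 0.457% of transcript clusters, 107 in number and 106 of them with a rising slope. Among the 107 were 17 of the 17 measured choroid plexus markers, for which the slope is no independent value because 15 of them make up the mean. Of the other marker lists, Tcf7l2 (thalamus, 0.20 ± 0.03, limma adjusted p = 0.0145) and Ppp1r1b (striatum, 0.15 ± 0.03, limma adjusted p = 0.044) also passed. The lists are thus not separate from each other, and whether Htr2c followed the choroid plexus alone was not tested.

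Over the 10 mice the correlation of Htr2c with the marker mean was r = 0.94 (permutation p = 0.00019, adjusted p = 0.0133 over 70 relations of 10 genes with 7 marker lists). Spearman's rho was 0.89 (permutation p = 0.00111, adjusted p = 0.0777), so the rank correlation did not pass after adjustment. Without Ts65Dn replicate 2 and control replicate 5, the mice farthest from the median marker mean, r was 0.86, and with the genotype means taken off it was 0.94. Leaving out single mice kept the slope between 0.384 and 0.475. With the marker mean in the fit the genotype difference of Htr2c became -0.04 ± 0.09 (fold change 0.97, interval 0.847 to 1.11), so its error fell from 0.24 and its sign turned. The share of the Htr2c signal that comes from the choroid plexus was not tested. In the 4 mice with the lowest marker means (6.71 to 6.85), Ts65Dn replicates 1 and 3 and control replicates 3 and 4, the Htr2c signal was 8.58, 8.68, 8.95 and 8.61.

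**Figure D3:**
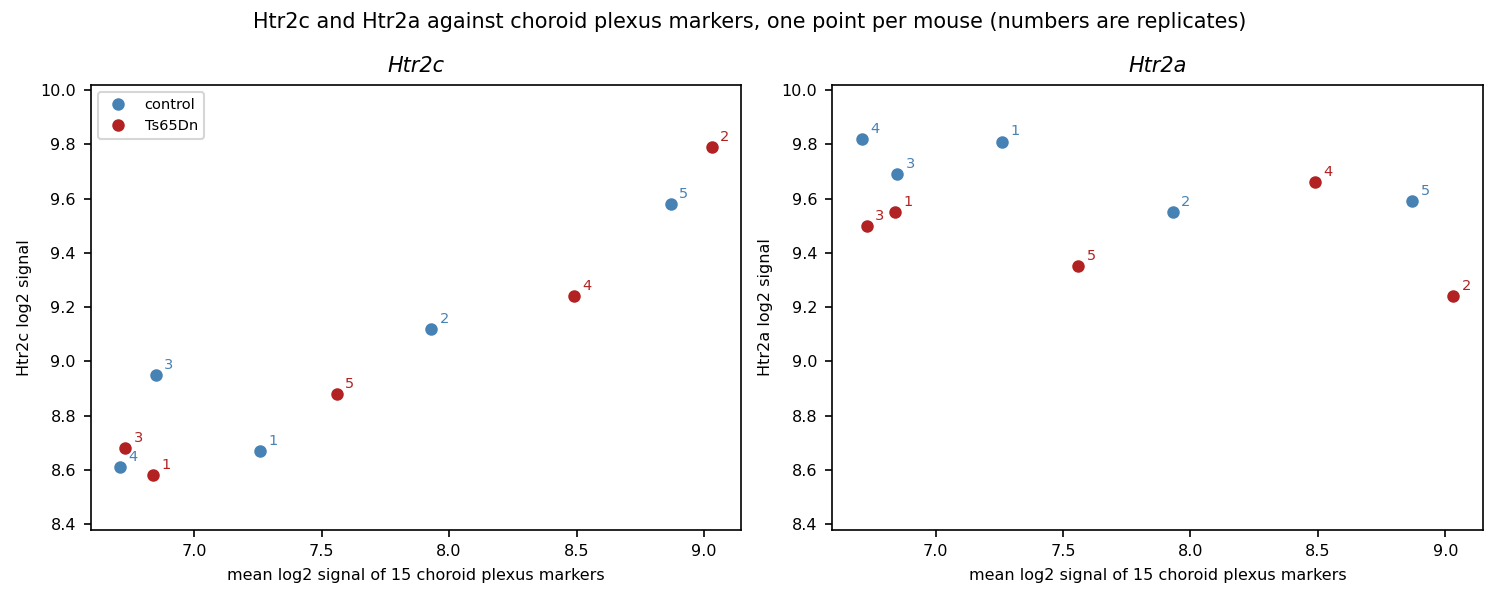
Log2 signal of Htr2c (left) and Htr2a (right) against the mean log2 signal of 15 choroid plexus markers, a point for each mouse with its replicate number, blue for controls and red for Ts65Dn. Htr2c climbed with the marker mean in both genotypes (r = 0.94 over 10 mice), from 8.58 to 9.79, while Htr2a showed no such rise.

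The bases before the start of Htr2c (chrX:146962263-146962463, plus strand, RefSeq, GRCm38.p6) are shown because it was the member that varied most between mice, with a match to the CCAAT box, read on the reverse strand as ATTGG, in capitals.
Htr2c promoter: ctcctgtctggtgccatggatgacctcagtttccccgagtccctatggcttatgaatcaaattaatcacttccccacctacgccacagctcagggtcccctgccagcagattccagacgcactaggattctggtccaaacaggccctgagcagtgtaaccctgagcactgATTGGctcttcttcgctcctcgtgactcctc
On either strand the letters CCAAT were found in 33.8% of 32851 promoters of 250 bases, GGGCGG in 32.7% and TATAAA in 12.4%. Of the 10 genes, 7 matched an entry of the promoter table (Htr1a, Htr1b, Htr2a, Htr2c, Htr5a, Htr6 and Htr7). CCAAT was also in that of Htr1b, with 2 matches on the reverse strand. GGGCGG was in those of Htr1a, Htr2a and the distal of the 2 of Htr6, and TATAAA in none. The G and C content was 52.8% for Htr2a and 55.6% for Htr2c, close to the median promoter (52.4%), and reached 82.0% for Htr7 (99.3rd percentile). The window of Htr7 lies wholly within the annotated gene, as does the other window of Htr6. That of Htr5a has 19 bases before its gene. The matches and percentages are descriptions of letters in a window.

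An intron of Htr2c also carries the microRNA gene Mir448 (chrX:147158210-147158321, plus strand). Its mature sequences are shown because the gene had its own transcript cluster on the array, with the seed (bases 2 to 8) in capitals.
mmu-miR-448-5p: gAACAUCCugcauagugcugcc
mmu-miR-448-3p: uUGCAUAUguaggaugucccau
The signal of that transcript cluster lay between 5.55 and 5.81 in all 10 mice, under the limit of 5.88 given above, the slope on the choroid plexus marker mean was -0.04 ± 0.03 (limma adjusted p = 0.632) and the genotype difference 0.03 ± 0.05 (adjusted p = 1). Probes for a precursor of this kind need not report the mature microRNA.

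Htr3a encodes the A subunit of the 5-HT3 channel, which in the hippocampus is found in interneurons of caudal ganglionic origin (chromosome 9, 48899213 to 48911152). The signal was 8.24, 8.09, 8.35, 7.95 and 8.10 in Ts65Dn mice and 7.93, 7.80, 8.21, 8.12 and 7.78 in controls. Below every Ts65Dn mouse were 3 controls, and above every control 2 Ts65Dn mice. The difference was 0.18 ± 0.10 (fold change 1.13, interval 0.978 to 1.31). With the choroid plexus marker mean in the fit it was 0.21 ± 0.06 (fold change 1.16, interval 1.05 to 1.27, limma adjusted p = 0.716), and the slope on that mean was -0.15 ± 0.04 (adjusted p = 0.156). The 12 markers of the interneuron class that expresses Htr3a had a mean signal of 8.98 to 9.22 in Ts65Dn mice and 9.00 to 9.12 in controls, and 0 of them were called. Brightest among these were Cck (12.33), Prox1 (10.16) and Cnr1 (9.46), which other hippocampal cells also express. Over the 10 mice, Htr3a was not correlated with the mean of the 12 markers (r = -0.03, permutation p = 0.941, adjusted p = 0.948, rho = 0.02). Of the 12, Calb2 varied most between mice, from 8.34 to 10.05, and so weighs heavily in that mean. The relation of Htr3a to single markers was not tested.

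Among the Gs-coupled receptors, Htr4 encodes the 5-HT4 receptor, which raises the excitability of pyramidal cells. Ts65Dn mice had 9.19, 9.07, 9.38, 9.24 and 9.03, and controls 9.18, 9.06, 9.05, 9.19 and 9.03. Ts65Dn replicates 3 and 4 were above all controls, and the lowest values of the groups were equal to 2 decimals. The difference was 0.08 ± 0.07 (fold change 1.06, interval 0.956 to 1.17).

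Htr6 encodes the 5-HT6 receptor of neuronal primary cilia (chromosome 4, 139059706 to 139075570). It measured 7.35, 7.51, 7.52, 7.44 and 7.44 in Ts65Dn mice and 7.40, 7.34, 7.31, 7.39 and 7.30 in controls. Above every control were 4 Ts65Dn mice, all but replicate 1. This was the gene with the least spread of the family (SD within genotypes 0.059, above 19.7% of genes), and the difference was 0.10 ± 0.04 (fold change 1.07, interval 1.01 to 1.14, limma adjusted p = 1).

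Htr7 encodes the 5-HT7 receptor (chromosome 19, 35958415 to 36058133) and had the lowest signal of the 10 genes. Its values were 6.27, 6.51, 6.31, 6.33 and 6.25 in Ts65Dn mice and 6.29, 6.60, 6.38, 6.44 and 6.50 in controls. Replicate 2 was the highest mouse in both groups, and the groups overlapped. The difference was -0.11 ± 0.06 (fold change 0.929, interval 0.842 to 1.03).

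**Figure D4:**
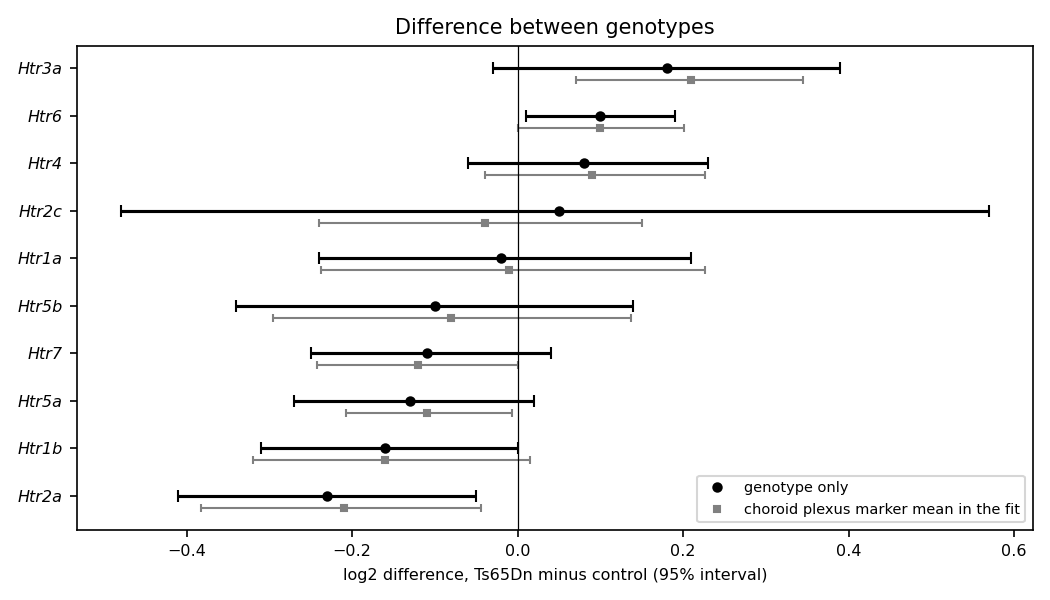
Difference in log2 signal between Ts65Dn and control mice for each of the 10 genes (points) with its 95% interval (bars, n = 5 per group), from the fit with genotype only (black) and from the fit that also holds the choroid plexus marker mean (grey). The interval of Htr2c shrank from -0.48 to 0.57 in the first fit to a much narrower one around -0.04 in the second, and those of the other genes moved less. As fold changes, the second intervals were 1.05 to 1.27 for Htr3a and 0.866 to 0.995 for Htr5a, which no longer held 1. They were 0.845 to 1.00 for Htr7 and 0.801 to 1.01 for Htr1b. No member was called in either fit.

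No receptor other than Htr2c followed a marker list past adjustment. Of the 70 relations between the 10 genes and 7 marker lists over 10 mice, 9 had a permutation p under 0.05 and 1 an adjusted p under 0.05. The relation that passed was Htr2c with the choroid plexus list. Htr2c also had r = 0.70 with the thalamus list (permutation p = 0.0238, adjusted p = 0.278, rho = 0.59, permutation p = 0.0813, adjusted p = 0.683, r = 0.77 without the 2 mice farthest from the median). For Htr3a with the thalamus list r was -0.72 (permutation p = 0.0115, adjusted p = 0.271, rho = -0.82, permutation p = 0.00611, adjusted p = 0.214), and it was -0.31 without the 2 farthest mice, control replicates 2 and 5, on which it rests. Htr5a had a negative correlation with the choroid plexus mean (r = -0.75, permutation p = 0.0116, adjusted p = 0.271, rho = -0.71, permutation p = 0.0272, adjusted p = 0.475, r = -0.62 without the 2 mice farthest from the median), and its slope was -0.10 ± 0.03 (limma adjusted p = 0.281). The other 5 had a permutation adjusted p of 0.278 to 0.37, and their r without the 2 farthest mice stands in brackets. For Htr3a with the choroid plexus r was -0.66 (-0.75). It was 0.70 (-0.08) for Htr7 with the striatum and 0.67 (0.61) for Htr7 with the thalamus. With the hippocampus list r was 0.65 (0.74) for Htr4 and 0.62 (0.10) for Htr5b. The marker means of other tissues next to the hippocampus varied less between mice than that of the choroid plexus did. The mean of 8 thalamus markers was 7.78 to 8.00 in Ts65Dn mice and 7.80 to 8.37 in controls, that of 7 striatum markers 7.99 to 8.09 and 7.93 to 8.21, that of 9 neocortex markers 8.71 to 8.79 and 8.65 to 8.78, and that of 7 medial habenula markers 7.19 to 7.35 and 7.17 to 7.56. Their brightest genes were Rora (9.29), Prkcd (9.22) and Plekhg1 (8.84) for the thalamus, Penk (10.20), Ppp1r1b (8.65) and Tac1 (7.87) for the striatum, Tbr1 (9.70), Fezf2 (9.64) and Rasgrf2 (9.54) for the neocortex, and Nr4a2 (10.47), Lrrc55 (8.57) and Tac2 (8.02) for the medial habenula. How much of these signals comes from hippocampal cells was not tested, so the means do not measure the amount of neighbouring tissue. Of the 7 medial habenula markers, 5 lay above the limit of 5.88, and Gpr151 (5.56) and Pou4f1 (5.39) lay under it. Chrnb4, also of that list, was at 7.88 in control replicate 1 and between 6.79 and 7.06 in the other mice. The mean of the 13 hippocampus markers was 9.10 to 9.50 in Ts65Dn mice and 9.30 to 9.42 in controls. No marker of these 5 lists was called between genotypes, and 1 each of the medial habenula, neocortex and hippocampus lists (of 7, 9 and 13 genes) had an unadjusted p under 0.05, where the background was 3.16%.

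No pair of receptor genes was correlated over the mice past adjustment. Among the 45 pairs of members, r ran from -0.76 for Htr2c with Htr5a (permutation p = 0.0102, adjusted p = 0.461, rho = -0.70, permutation p = 0.0308, adjusted p = 0.738, r = -0.59 without the 2 mice farthest from the median of Htr2c) to 0.65 for Htr2a with Htr5a (permutation p = 0.0433, adjusted p = 0.504, rho = 0.55, permutation p = 0.104, adjusted p = 0.738, r = 0.30 without 2 such mice). The mean signal of the 10 genes was 8.19 to 8.32 in Ts65Dn mice and 8.26 to 8.32 in controls.

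The genes most like each receptor were sought over all 19938 genes, by Pearson's r over 10 arrays after the genotype means were taken off. With so many genes a high r is common, and the best partner of a gene had a median r of 0.963 (5th percentile 0.925). For Htr2c these were Cgnl1 (0.973), a junction protein of epithelia, Cab39l (0.970) and Pcolce (0.968), and 15 of the 17 choroid plexus markers were among the first 100 genes of the list, led by Folr1 (0.97). The nearest to Htr2a were Fam13c (0.947), Ypel1 (0.932) and Atf6b (0.928). Dhx8 (0.94), Flywch1 (0.936) and Bst1 (0.929) were nearest to Htr1a, and Olfr286 (0.936), Galnt15 (0.922) and Lfng (0.92) to Htr1b. None of these 9 genes is a serotonin receptor, and Olfr286 belongs to the class of genes not known for expression here. For Htr5a they were Tafa1 (0.971), Xk (0.94) and Pigyl (0.938), and for Htr5b Olfr266 (0.979), Aasdhppt (0.946) and Serpinb11 (0.933). Htr3a was most like Gm9767 (0.974), Lrriq4 (0.971) and Tnfrsf18 (0.955), all 3 of them dimmer than the median gene. Htr4 was most like Nptx1 (0.947), a neuronal pentraxin, Fcna (0.946) and Ust (0.937). Entpd3 (0.954), Slc22a13b (0.95) and Siglecf (0.948) came nearest to Htr6, and Zic4 (0.945), Invs (0.938) and Cfap52 (0.933) to Htr7. The best r of the 10 receptors, 0.936 to 0.979, thus spanned the usual range of such values.

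The pathways around the receptors were read from lists grouped by role, in which 1 of 89 measured genes was called, against 0.316% of all transcript clusters. That gene was Kcnj6, which encodes the GIRK2 potassium channel opened by Gi/o-coupled receptors such as 5-HT1A and is in 3 copies in Ts65Dn mice. Of the 158 measured genes in 3 copies, 53 were called. The signal of Kcnj6 was 8.88 to 9.08 in Ts65Dn mice and 8.55 to 8.73 in controls. The groups did not overlap, which was the case for 0.884% of transcript clusters. The rise of Kcnj6 was 0.36 ± 0.05 (fold change 1.29, interval 1.18 to 1.40, limma adjusted p = 0.0153). The call was lost without control replicate 1 (adjusted p = 0.0509), control replicate 2 (adjusted p = 0.0605) or control replicate 3 (adjusted p = 0.0583). At an unadjusted p under 0.05 there were 2 of the 89 genes higher and 4 lower, against a background of 3.16% in either direction.

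Of the 14 genes of Gi/o signalling 1 was called, with a list median of 0.01. After Kcnj6 the smallest p-values were those of the regulators of G protein signalling Rgs17 (0.13 ± 0.04, limma adjusted p = 0.966) and Rgs4 (0.19 ± 0.09). The other lists held no called gene. In the list of serotonin synthesis, transport and breakdown, 0 of 15 genes were called with a median of -0.01. Ddc, the decarboxylase that makes serotonin and dopamine, was at 6.04 to 6.25 in Ts65Dn mice and 6.26 to 6.54 in controls, and its difference of -0.26 ± 0.06 (fold change 0.838, interval 0.765 to 0.918) had a limma adjusted p of 0.27. Tph2, the tryptophan hydroxylase of raphe neurons, had a signal of 5.38, under the limit of 5.88, and a difference of 0.06 ± 0.04, and Lmx1b, a regulator of serotonergic neurons, one of -0.09 ± 0.06.

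Of Gs and cyclic AMP signalling, 0 of 19 genes were called and 0 had an unadjusted p under 0.05 (median -0.01), with Pde4d (-0.08 ± 0.04), Prkar1b (0.09 ± 0.06) and Adcy5 (-0.05 ± 0.04) nearest to it. In Gq and phospholipase C signalling 0 of 13 were called (median -0.002). Plcb3, a phospholipase C, differed by -0.14 ± 0.05, Rgs2, a regulator that acts on Gq, by -0.23 ± 0.09 and Gna14 by -0.08 ± 0.06, each with a limma adjusted p of 1. Receptor partners and trafficking gave 0 of 17 (median 0.03), with Cav1 (0.21 ± 0.11), Grk3 (-0.12 ± 0.06) and Grk5 (-0.19 ± 0.12) first by p. Among 11 regulators of the receptor genes and of RNA editing 0 were called (median -0.05). Deaf1, a repressor of Htr1a in raphe cells, differed by -0.17 ± 0.07, and the editing enzymes Adarb1 and Adar, which act on the Htr2c transcript, by -0.07 ± 0.06 and 0.05 ± 0.05. For comparison, 0 of 11 dopamine, histamine and adrenergic receptor genes were called (median -0.03), the smallest p-values being those of Drd3 (-0.14 ± 0.06), Drd1 (0.13 ± 0.06) and Drd2 (-0.32 ± 0.21).

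**Figure D5:**
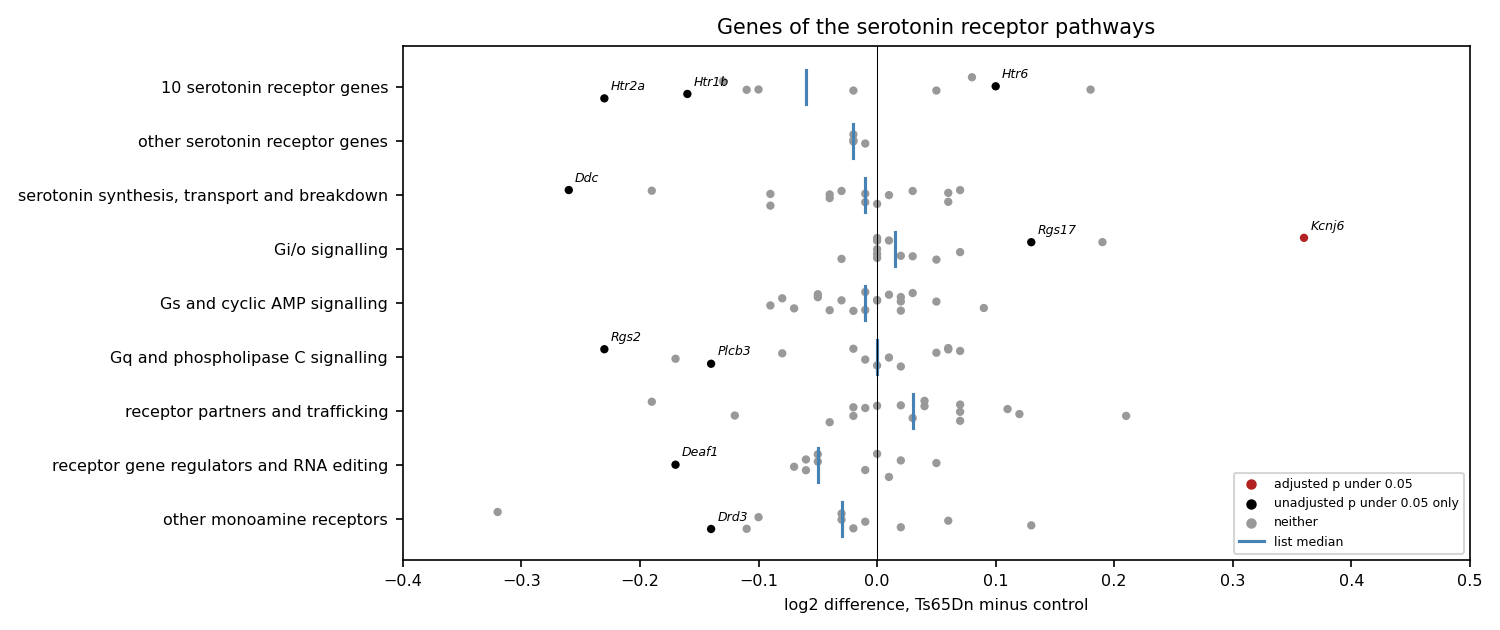
Difference in log2 signal between Ts65Dn and control mice for the genes of each list (a point per gene, a blue bar for the list median), red past adjusted p 0.05 and black past unadjusted p 0.05 alone. The single red point is Kcnj6 at 0.36, a gene in 3 copies, and the list medians lie between -0.06 and 0.03.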

How the data were processed

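Hippocampal RNA of 10 mice, right and left pooled for each, was measured on Affymetrix Mouse Gene 1.0 ST arrays. The deposited table holds log2 values from RMA, the authors' background correction, between-array equalisation and probe summary, which understates fold changes of dim genes. RMA, limma and mm10 are named in the processing notes of the submitters, and their versions are not given in the sources used here. For arrays, the number of mice limits the precision.

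Of 35556 rows, 21789 had exactly 1 gene symbol in the platform annotation, 1621 had several and 12146 had none. The 23410 rows with a symbol were tested with lmFit and eBayes of limma 3.58.1 (R 4.3.3), genotype being the single term, with two-sided tests and Benjamini-Hochberg adjustment, and a row past adjusted p 0.05 was called. The fit was tested on simulated data. Adjusted p-values are from this fit unless another is named, and differences are Ts65Dn minus control. A gene was represented by its brightest row. Coordinates are those of the gene in RefSeq (GRCm38, also called mm10), since probe positions were not used. The marker mean of each mouse left out genes in 3 copies, and relations over mice were tested with 100000 permutations (two-sided).

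The rank method was written anew after the kind of test in the study, in which the fold changes of array pairs are ranked. It used all 25 pairs of a Ts65Dn with a control array, mean ranks trimmed at a share of 0.25 and a normal probability, which may differ from the program of the study. Further alternatives changed the tested rows, the filter on dim rows, normalizations, variance models, array weights, thresholds, the replicate number as a block, the choroid plexus term, or the mean of a gene's rows, or left out each array.

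The members and lists were chosen with earlier results of these data known, and the slope on the choroid plexus markers and its alternatives were chosen after the values were seen. Named genes are the 10 members, the 4 other receptor genes measured, the called genes and the 3 of smallest p in each list, the 3 brightest of each marker list and the 3 genes most like each member. Folr1 was named after its value was seen. Listed genes without a row of 1 symbol, such as Gnas, Prkaca, Itpr1 and Adrb1, were not analysed here.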

Additional observations from a re-analysis of the deposited data

How the results depend on the processing

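In none of the 27 alternatives other than the rank method was a member called, and with the rank method 5 were. Transcript clusters called numbered 70 to 78 with other rows, normalizations, variance models or array weights, 56 with the mean of a gene's rows, 1255 with the rank method and 41 at adjusted p 0.01, and 51 to 63 when an array was left out. Members at an unadjusted p under 0.05 numbered 1 among rows above the median signal, 1 with arrays centred on the 75th percentile, 1 with an intensity trend, 1 with trend and robust variances, 4 with the replicate block, 5 with the rank method and 5 with the choroid plexus term, and 1 to 3 when an array was left out. Of the pathway genes, 10 were called by the rank method, 0 at adjusted p 0.01 and 0 to 1 when an array was left out. The sign turned for Htr2c with the choroid plexus term (-0.043), and leaving out arrays moved it from -0.142 to 0.197 for Htr2c and from -0.077 to 0.058 for Htr1a. Of the other receptor genes, Htr3b turned with quantile normalization (0.004), cyclic loess (0.001), array weights (0.003) and the choroid plexus term (0.002). Leaving out arrays gave -0.038 to 0.032 for Htr3b, -0.05 to 0.001 for Htr1d and -0.051 to 0.006 for Htr1f. The slope of Htr2c, 0.442 as reported, was 0.439 without genotype, 0.483 on the marker median and 0.384 to 0.475 without single arrays, the lowest without Ts65Dn replicate 2. Among 268 recalculated differences of the members, 255 kept their direction and side of the threshold. Other rows, variance models, thresholds, the rank method, the block and the mean of a gene's rows leave a member's difference itself unchanged. Its direction could turn only with normalizations, array weights, the choroid plexus term or left-out arrays, so the 255 are no measure of stability.

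With the replicate block, 76 transcript clusters and 0 members were called, and Htr2a had the same difference with an SE of 0.04 and an adjusted p of 0.0859. The 4 members at an unadjusted p under 0.05 were then Htr2a, Htr1b, Htr7 and Htr3a, where 1180 of 23410 transcript clusters were. Arrays of the same replicate number correlated in their deviations from the group means with r of 0.51, 0.27, 0.32, 0.03 and 0.46. For 4 of 5 Ts65Dn arrays, the control array that matched best had the same number. The labels do not say what a number marks, so it was not used as a pairing. Signals near the dim limit (Htr1d, Htr2b, Htr3b, Tph2, Mir448) leave differences there poorly measured.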
